A study of Homo sapiens and Mus musculus with 24 samples.

Results

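LNCaP cells that shared their culture with the fibroblasts labelled CCAFs were profiled by RNA sequencing after enzalutamide or its vehicle. The comparison rests on 4 of the 24 libraries of the study. 2 libraries come from LNCaP with CCAFs that received 1 µM enzalutamide, and 2 come from LNCaP with CCAFs that received DMSO. All 4 were collected at day 7, and the labels give the genotype WT, the cell type epithelial and 2 biological replicates per condition. The 4 libraries were picked by these labels. LNCaP is an established human prostate cancer line that depends on androgen, and enzalutamide is a drug that blocks the androgen receptor. The study also holds LNCaP grown alone and LNCaP with fibroblasts labelled CRPCCAFs, each with 1 µM enzalutamide or DMSO to day 7, and 12 libraries of mouse fibroblasts that were not used here. The labels spell out neither CCAF nor CRPCCAF, and the sample titles of both coculture settings carry the tag p53, which they do not explain. They give no species for the cocultured fibroblasts and do not say how the LNCaP cells were separated from them.

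The androgen receptor is a nuclear receptor that binds DNA after it has bound testosterone or dihydrotestosterone. In prostate epithelium it drives secreted proteases such as the kallikreins, lipid synthesis and the protein folding that a secretory cell needs, and it holds another group of genes down. Enzalutamide competes with androgen for the receptor and keeps it from working on DNA. Cancer-associated fibroblasts share the tissue with the tumor cells and act on them through secreted factors and matrix.

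Values are the RPKM that the authors deposited, reads scaled to gene length and library size, which allow levels of different genes to be set side by side. Changes are given as log2 of RPKM plus 1, enzalutamide minus DMSO, which makes the change of weakly expressed genes look smaller than its fold. A gene is said to have risen or fallen where limma's test gave a Benjamini-Hochberg adjusted p under 0.05 across all 16042 genes tested. These are the genes with 1 RPKM or more in at least 2 of the 12 LNCaP libraries, out of 44564 gene names. Fewer cells of a type and less RNA per cell cannot be told apart in such bulk samples. The labels give separate biological replicates but not how they were made, so p-values measure the spread between these libraries.

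The step size of each gene's values gives back 17850431 to 22187880 reads in each of the 12 LNCaP libraries. These are reads assigned to the genes that could be solved in this way, not all reads sequenced. The 2 enzalutamide libraries with CCAFs had 20177106 and 18627937 such reads, and the 2 DMSO libraries with CCAFs had 19310470 and 19027307. Between the 2 libraries of a group, the median gene differed by 0.0774 with enzalutamide and by 0.0697 with DMSO on the log2 scale. All 15 luminal epithelial markers stood at 1 RPKM or more on average in both groups. Of 25 fibroblast markers, 8 averaged 1 RPKM or more with enzalutamide and 7 with DMSO, while 8 others, among them DCN, PDGFRA, THY1 and FAP, were under 0.1 RPKM in all 4 libraries. Of 11 leukocyte markers, 1 averaged 1 RPKM or more in each group and 6 were under 0.1 in all 4 libraries. Of 7 endothelial markers, 1 averaged 1 RPKM or more in each group and 4 were under 0.1 in all 4 libraries. The summed RPKM of the fibroblast markers ran from 145.39 to 145.70 with enzalutamide, against 124.58 to 130.50 with DMSO. COL6A1, COL6A2 and FN1 made up most of that sum, FN1 being lower and both collagens higher with enzalutamide, and what part other cells have in any result below was not tested.

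Enzalutamide changed 7756 genes of LNCaP with CCAFs, which is 48.3% of those tested. Of these, 4306 were higher (26.8%) and 3450 were lower (21.5%), and the median change over all genes was 0.0455. The counts of each gene list below are to be set against these shares. A change of 1 or more on the log2 scale was reached by 578 genes (3.60%), 260 of them higher (1.62%) and 318 lower (1.98%). The median was 0.0023 once the libraries were scaled by the median of ratios, with 3697 calls higher and 4041 lower. With a pseudocount of 0.1 RPKM in place of 1, the count at log2 of 1 or more was 1170, so that count is set by how low values are treated. Both enzalutamide libraries lay above both DMSO libraries in 42.4% of genes and below both in 33.2%. Each gene named below as risen or fallen had its groups apart in this way. For many of them the rule by which they were picked required it, so it is no further result.

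**Figure D1:**
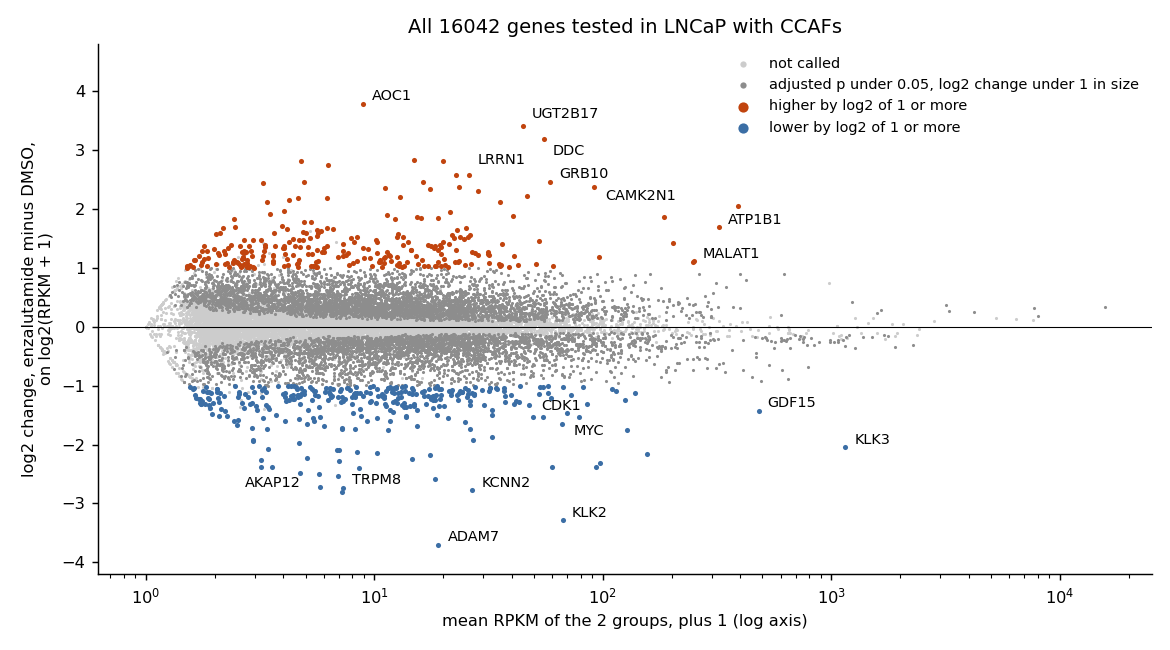
Change against level for the 16042 genes tested: the horizontal axis is the mean RPKM of the 2 groups plus 1 on a log axis, the vertical axis the log2 change of enzalutamide minus DMSO in LNCaP with CCAFs, and each point is a gene. AOC1 stands highest at 3.78 and ADAM7 lowest at -3.70, while abundant genes such as KLK3 (-2.04) and GDF15 (-1.43) also moved.

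Partners of the receptor moved in both directions. HOXB13, a homeodomain partner of the receptor in prostate cells, rose to 213 and 226 RPKM with enzalutamide, against 140.2 and 138 with DMSO (log2 0.65, SE 0.0355, adjusted p = 6.8e-07). The coactivator NCOA3 had 11.2 and 10.3 RPKM with enzalutamide and 5.47 and 5.46 with DMSO (log2 0.86), and its relative NCOA2 had 23.2 and 22.4 RPKM with enzalutamide and 12.2 and 12.5 with DMSO (log2 0.83). The 2 groups did not overlap in any of these 3 genes, as the rule by which they were picked required. The pioneer factors FOXA1 (log2 0.48) and GATA2 (log2 0.30) rose as well. ETV1, an ETS factor that is rearranged in LNCaP, and SPDEF, a luminal ETS factor, both fell (log2 -0.52 for ETV1 and -0.52 for SPDEF). Of 20 tested receptors and coregulators, 9 rose and 5 fell, with a median of 0.14. The count of falls was 3 without DMSO replicate 1 and 3 without enzalutamide replicate 2. NR3C1, the glucocorticoid receptor, was under the filter, with 0.0889 and 0.0736 RPKM with enzalutamide and 0.0656 and 0.105 RPKM with DMSO, and was not tested.

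Genes that the receptor activates fell to different depths. KLK3, which encodes prostate-specific antigen, stood at 444 and 454 RPKM with enzalutamide, against 1861 and 1849 RPKM with DMSO (log2 -2.04, SE 0.0537, adjusted p = 7e-09). Its neighbour KLK2, a related protease, kept a smaller share of its level, with 10.9 and 12.1 RPKM with enzalutamide and 120.1 and 121 RPKM with DMSO (10.5-fold lower, log2 -3.29). KLK4 fell by less, with 41.7 and 40.3 RPKM with enzalutamide against 66.1 and 63.7 with DMSO (log2 -0.65). The fold of the fall ran from 1.58 for KLK4 to 10.5 for KLK2. KLK15 (log2 -0.96) and the pseudogene KLKP1 (log2 -0.67) fell too; the members of this family are alike in sequence, so reads shared between them could move a value. AZGP1, a secreted zinc-binding glycoprotein, had 20.6 and 23.2 RPKM with enzalutamide and 43.2 and 45.5 with DMSO (log2 -0.99). ADAM7, a reproductive-tract member of the ADAM family, was the gene with the lowest log2 change of all, at 1.82 and 1.64 RPKM with enzalutamide against 33.8 and 35.1 with DMSO (19.9-fold lower). The one secreted product that rose was ACPP, prostatic acid phosphatase, at 33.1 and 31.1 RPKM with enzalutamide and 10.5 and 10.7 RPKM with DMSO (3.03-fold higher, log2 1.51, adjusted p = 4.3e-08). SPON2 had 323 and 339 RPKM with enzalutamide and 312 and 307 with DMSO and did not pass (adjusted p = 0.13).

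The RefSeq promoter window of KLK3 is shown because the proximal promoter of this gene is the textbook site of receptor binding. It runs over chr19:50854665-50854964 on the plus strand of GRCh38.p14, and capitals mark the androgen response half-site AGAACA, which begins at -170 from the start site.
KLK3: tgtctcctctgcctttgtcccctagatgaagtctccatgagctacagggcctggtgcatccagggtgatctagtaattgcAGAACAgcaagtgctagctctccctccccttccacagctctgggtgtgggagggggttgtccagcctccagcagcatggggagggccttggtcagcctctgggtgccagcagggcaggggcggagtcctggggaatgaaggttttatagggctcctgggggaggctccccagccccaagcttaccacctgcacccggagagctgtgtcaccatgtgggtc
The half-site was searched on both strands. It is present in 3 of the 31 windows found for androgen-activated targets (9.7%) and in 852 of the 9826 windows of all tested genes (8.7%), which are close shares. The full palindromic element was found in 0 of the 9826 windows.

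Of 47 androgen-activated targets tested, out of 51 listed, 39 fell and 1 rose. 24 fell by 1 or more on the log2 scale, and the median was -1.02. The single rise, TSC22D3 (log2 0.23), a gene that glucocorticoids also induce, was not called without enzalutamide replicate 1. TMPRSS2, the membrane protease whose promoter is fused to ETS genes in many prostate cancers, stood at 32.0 and 31.1 RPKM with enzalutamide and 161 and 162 RPKM with DMSO (log2 -2.32, SE 0.0428). SLC45A3, a prostate membrane transporter, had 29.5 and 28.9 RPKM with enzalutamide against 157 and 154 with DMSO (log2 -2.38). The fold of the fall was 5.11 for TMPRSS2 and 5.33 for SLC45A3. KCNN2, a calcium-activated potassium channel, was at 5.73 and 5.94 RPKM with enzalutamide and 46.9 and 44.9 RPKM with DMSO (log2 -2.78). The cold-sensing channel TRPM8 was at 1.04 and 0.782 RPKM with enzalutamide and 11.3 and 11.96 RPKM with DMSO (log2 -2.73). PGC, pepsinogen C, was nearly lost, at 0.109 and 0.207 RPKM with enzalutamide against 4.96 and 5.06 with DMSO (log2 -2.38), and so was HPGD, which breaks down prostaglandins, at 0.0817 and 0.124 RPKM with enzalutamide against 4.18 and 4.44 with DMSO (log2 -2.27). FKBP5, an HSP90 co-chaperone, stood at 4.24 and 4.03 RPKM with enzalutamide and 23.0 and 23.4 with DMSO. Its change of -2.24 lies among these targets although glucocorticoids can induce it too. The 7 targets that did not pass, PART1, RHOU, TBC1D4, MICAL1, VAPA, B2M and APPBP2, had changes between -0.29 and 0.067.

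**Figure D2:**
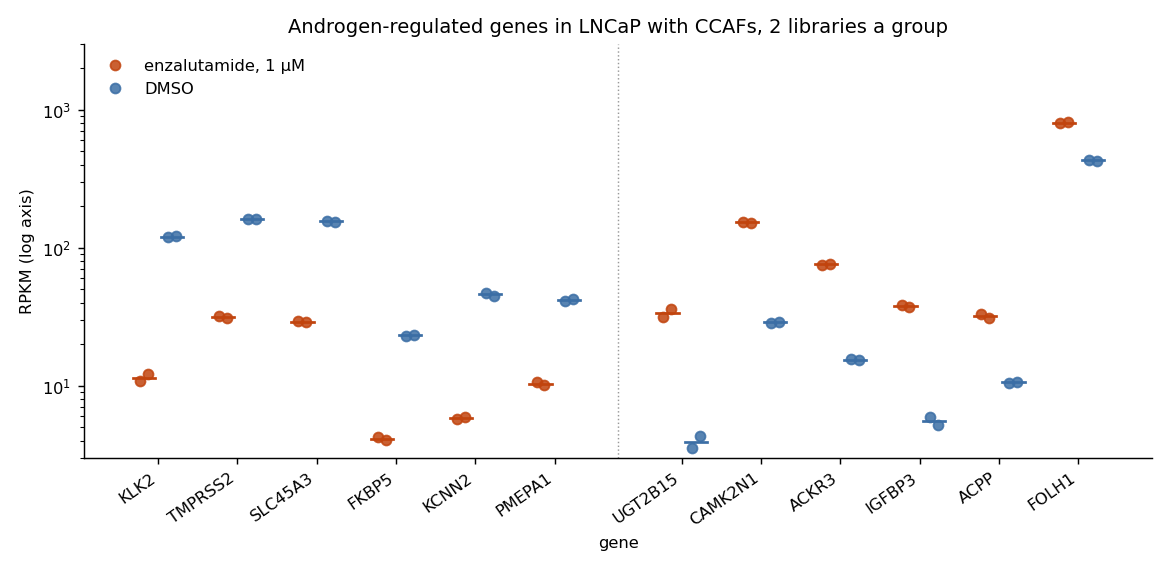
RPKM on a log axis in each of the 4 libraries of LNCaP with CCAFs for 6 genes that fell (left of the dotted line) and 6 that rose, with enzalutamide left of DMSO in each gene; points are libraries and short lines are group means. The 2 libraries of a group nearly coincide: KLK2 is at 10.9 and 12.1 RPKM with enzalutamide against 120.1 and 121 with DMSO, and CAMK2N1 at 155 and 151 RPKM with enzalutamide against 28.5 and 29.0 with DMSO.

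Genes that androgen holds down rose. DDC, the enzyme that makes dopamine and serotonin, stood at 98.2 and 99.3 RPKM with enzalutamide against 9.79 and 10.1 RPKM with DMSO (9.92-fold higher, log2 3.19). CAMK2N1, an inhibitor protein of CaM kinase II, reached 155 and 151 RPKM with enzalutamide, against 28.5 and 29.0 with DMSO (log2 2.37, SE 0.0591). ACKR3, a scavenging chemokine receptor also called CXCR7, had 74.5 and 77.0 RPKM with enzalutamide against 15.7 and 15.3 with DMSO (log2 2.22). FOLH1, prostate-specific membrane antigen and a target of imaging and radioligand therapy, stood at 801 and 810.2 RPKM with enzalutamide and 435 and 428 with DMSO (log2 0.90). FOLH1 was the most abundant of them per length in both groups. OPRK1, the kappa opioid receptor, had 4.50 and 4.58 RPKM with enzalutamide and 0.229 and 0.323 with DMSO (log2 2.12), and BCHE, butyrylcholinesterase, had 26.2 and 28.4 RPKM with enzalutamide and 9.38 and 10.6 with DMSO (log2 1.36). Of 17 androgen-repressed genes tested, out of 23 listed, 14 rose and 2 fell, with a median of 1.09. One of the falls was large: TMEFF2, a membrane protein of prostate and brain, was at 2.81 and 2.76 RPKM with enzalutamide against 15.4 and 16.0 with DMSO (log2 -2.14, adjusted p = 1.1e-07). TMEFF2 also fell alone (log2 -2.19) and with CRPCCAFs (log2 -2.58), opposite to the direction its place on this list implies. Whether it belongs on the list was not tested. PDE9A was the other (log2 -0.30).

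UGT2B17 and UGT2B15, a pair of enzymes that inactivate androgen, were higher with the drug. UGT2B17, which attaches glucuronic acid to testosterone and its metabolites, had 81.1 and 80.5 RPKM with enzalutamide against 6.37 and 6.97 with DMSO (log2 3.42, SE 0.0698). UGT2B15 had 31.6 and 36.1 RPKM with enzalutamide against 3.57 and 4.30 with DMSO (log2 2.82). The UGT2B genes are near-identical in sequence, so the split of reads between the 2 is uncertain, and UGT2B11 (log2 0.53) rose as well. UGT2B28 was under the filter and not tested, with 0.162 and 0.205 RPKM with enzalutamide and 0.395 and 0.401 RPKM with DMSO. Among enzymes of androgen synthesis, AKR1C3, which reduces androstenedione to testosterone, was at 2.32 and 3.25 RPKM with enzalutamide and 0.966 and 0.768 with DMSO (log2 1.01); it too has close relatives in AKR1C1 and AKR1C2. CYP11A1, which cuts the side chain of cholesterol, fell to 0.509 and 0.640 RPKM with enzalutamide, against 4.49 and 3.98 with DMSO (log2 -1.73, adjusted p = 3.3e-06). HSD17B6 (log2 -0.61) and STS (log2 0.28) were near the threshold, and each lost its call when 1 of several libraries was left out. Of 13 steroid enzymes tested, 3 rose and 4 fell, with 53.8% called against 48.3% of all genes. Fewer falls were called without DMSO replicate 1 or enzalutamide replicate 1.

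Every tested gene of DNA replication and of mitosis fell. All 39 genes for replication and nucleotide synthesis fell, 15 of them by 1 or more on the log2 scale, with a median of -0.88. All 46 mitosis genes fell, 31 by 1 or more, with a median of -1.11 and a range from -1.41 to -0.60. The background of falls was 21.5% over all genes, and 1.98% at log2 of 1 or more. RRM2, the small subunit of ribonucleotide reductase, had 25.1 and 23.4 RPKM with enzalutamide against 72.2 and 72.6 with DMSO (log2 -1.54, SE 0.0640, adjusted p = 1.4e-07). CDC45 and MCM10, which start the replication fork, changed by -1.29 and -1.28, and CDC6, which loads the helicase, by -1.24. TYMS, thymidylate synthase, had 33.4 and 35.6 RPKM with enzalutamide against 81.3 and 81.8 with DMSO (log2 -1.22). The sliding clamp PCNA was at 53.3 and 52.6 RPKM with enzalutamide and 110.1 and 108 RPKM with DMSO (log2 -1.03). POLE (log2 -0.22) and CDC7 (log2 -0.37) were the least changed of the replication genes.

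CDK1, the kinase that drives entry into mitosis, stood at 25.5 and 26.4 RPKM with enzalutamide, against 65.9 and 67.7 RPKM with DMSO (log2 -1.33, SE 0.0409, adjusted p = 1.9e-08). The proliferation marker MKI67 had 7.64 and 7.46 RPKM with enzalutamide and 20.7 and 19.7 with DMSO (log2 -1.31). ANLN, a scaffold of the cleavage furrow, had 7.72 and 7.09 RPKM with enzalutamide against 21.7 and 21.0 with DMSO (log2 -1.41). In these 3 genes both enzalutamide libraries lay below both DMSO libraries, as they did in 33.2% of all genes. AURKB, a kinase that corrects chromosome attachment, changed by -1.34, and the condensin subunit NCAPG by -1.36. CCNB2, a mitotic cyclin, changed by -1.13, and CDC20, an activator of the anaphase-promoting complex, by -1.08.

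The promoter windows of CDK1, CCNB2 and CDC20 are shown because genes of late cell cycle are known to share a CHR element, TTTGAA, near a CCAAT box. They lie at chr10:60778081-60778380, chr15:59104896-59105195 and chr1:43358731-43359030 of GRCh38.p14, all on the plus strand and taken from RefSeq. Capitals mark TTTGAA and CCAAT, read on either strand.
CDK1: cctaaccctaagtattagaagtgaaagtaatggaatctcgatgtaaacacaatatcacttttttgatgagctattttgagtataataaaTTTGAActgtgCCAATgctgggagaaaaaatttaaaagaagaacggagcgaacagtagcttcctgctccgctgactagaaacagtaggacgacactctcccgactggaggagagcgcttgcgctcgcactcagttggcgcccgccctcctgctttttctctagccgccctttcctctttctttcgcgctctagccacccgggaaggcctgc
CCNB2: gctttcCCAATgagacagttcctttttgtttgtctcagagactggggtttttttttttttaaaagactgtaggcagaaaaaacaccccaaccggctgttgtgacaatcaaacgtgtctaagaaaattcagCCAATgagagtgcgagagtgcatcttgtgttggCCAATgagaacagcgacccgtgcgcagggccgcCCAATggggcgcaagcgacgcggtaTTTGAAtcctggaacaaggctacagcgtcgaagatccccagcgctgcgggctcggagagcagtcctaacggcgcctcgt
CDC20: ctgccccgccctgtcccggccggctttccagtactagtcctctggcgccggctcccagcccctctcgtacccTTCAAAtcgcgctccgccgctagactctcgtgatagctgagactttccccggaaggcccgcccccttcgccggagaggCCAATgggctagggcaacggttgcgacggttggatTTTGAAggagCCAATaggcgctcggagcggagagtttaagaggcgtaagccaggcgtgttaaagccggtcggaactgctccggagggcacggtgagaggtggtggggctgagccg
In CCNB2 the CHR letters begin at -29 from the start site and follow 4 CCAAT boxes, at -244, -120, -87 and -54. CDC20 has them at -65 and, on the other strand, at -178, beside CCAAT boxes at -100 and -55, while CDK1 has 1 of each, at -161 and -150. In CDK1 the CHR letters thus come before the CCAAT box, the reverse of the order in CCNB2. Whether they are the known element was not tested. Over the 40 windows matched to mitosis genes, 29 held TTTGAA (72.5%) and 31 held CCAAT (77.5%), against 9.3% and 37.2% of the 9826 windows of all tested genes. Among the 34 windows of replication genes, 1 held TTTGAA (2.9%) and 6 held the E2F letters TTTGGCGC (17.6%), against 1.1% of all windows for the E2F letters. A match of letters is a description of these windows and not a measured binding site.

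Most genes of the list for cell cycle entry and its inhibitors fell too. E2F7 (log2 -1.24), E2F8 (log2 -1.04) and E2F2 (log2 -0.99), factors of the E2F family, fell, as did the phosphatase CDC25A (log2 -1.07). Cyclin-dependent kinase inhibitors did not rise as a group. CDKN1A, which encodes p21, had 78.2 and 81.7 RPKM with enzalutamide and 114 and 117 with DMSO (log2 -0.53). CDKN1B, which encodes p27, had 42.5 and 40.6 RPKM with enzalutamide and 35.3 and 38.6 with DMSO (log2 0.17, adjusted p = 0.019), and its call was lost without DMSO replicate 1 or enzalutamide replicate 1, after scaling and with the 4 CCAF libraries fitted alone. CCND1, cyclin D1, was at 113 and 109.6 RPKM with enzalutamide and 116.2 and 118 with DMSO and did not pass (adjusted p = 0.098). RBL2, the retinoblastoma relative p130 that is found in resting cells, rose by 0.76. Of 28 genes of this list, 19 fell and 4 rose; the rises numbered 1 without DMSO replicate 1 and 1 without enzalutamide replicate 1.

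Recombination and crosslink repair genes fell with replication. Of 30 tested, 26 fell and 2 rose, with a median of -0.70; the rises were ATM (log2 0.26) and BARD1 (log2 0.24), of which 1 remained called without DMSO replicate 1 or without enzalutamide replicate 1. RAD51AP1 and RAD54L, which act in homologous recombination, changed by -1.34 and -1.19. The nuclease EXO1 changed by -1.13 and FANCI, of the Fanconi anemia complex, by -1.12. Histone genes linked to replication did not fall together: 6 rose and 6 fell of 22 tested, with 54.5% called against 48.3% of all genes. Fewer falls were called without DMSO replicate 1 or DMSO replicate 2. HIST2H2BE, whose transcript can be polyadenylated, rose to 96.7 and 99.4 RPKM with enzalutamide, against 56.3 and 57.2 with DMSO (log2 0.78), while HIST1H1B was at 0.751 and 1.02 RPKM with enzalutamide against 2.42 and 1.93 with DMSO (log2 -0.75). Histone genes are near copies of each other, and how the authors counted reads shared between copies was not stated.

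MYC, the growth-promoting transcription factor, had 31.5 and 30.9 RPKM with enzalutamide against 99.2 and 101 with DMSO (3.20-fold lower, log2 -1.65, SE 0.0405, adjusted p = 5.1e-09). The genes of ribosome assembly moved with it by smaller steps: of 36 genes tested, 32 fell and 1 rose, with a median of -0.46, and MYC was the one that fell by 1 or more. NOLC1, a nucleolar phosphoprotein, had 51.3 and 48.1 RPKM with enzalutamide against 90.9 and 90.8 with DMSO (log2 -0.86). LYAR (log2 -0.98) and NOP16 (log2 -0.88), nucleolar proteins too, fell as well. MXD4, an antagonist of MYC at its partner MAX, rose (log2 0.57). Transcripts of the ribosomal proteins themselves changed by small steps, with a median of -0.16. Of 53 tested, 26 fell (49.1%, against 21.5% of all genes) and the others did not pass. RPL4 was the most changed (log2 -0.37). The count of falls is not stable. It was lower without DMSO replicate 1, DMSO replicate 2 or enzalutamide replicate 1, and it was 38 after median-of-ratios scaling, with a median of -0.21.

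Of 14 polyamine enzymes tested, 4 rose and 5 fell, where 26.8% of all genes rose and 21.5% fell. ODC1, which makes putrescine, had 123 and 131 RPKM with enzalutamide against 227 and 232 with DMSO (log2 -0.85). SRM, spermidine synthase, had 62.4 and 59.5 RPKM with enzalutamide against 121 and 107 with DMSO (log2 -0.89), and MTAP, which recycles the methylthio group, changed by -0.89. AOC1, a diamine oxidase that breaks putrescine down, was the largest rise of all genes. It stood at 15.9 and 15.3 RPKM with enzalutamide and 0.145 and 0.274 RPKM with DMSO (log2 3.78, SE 0.0857). ODC1, SRM and MTAP were lower, and AOC1 higher, in both libraries of the drug, as the rule by which they were picked required. AMD1 was at 245 and 243 RPKM with enzalutamide and 248 and 249.7 with DMSO, a change that did not pass (adjusted p = 0.47).

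Glycolysis and the genes that hypoxia induces fell, 28 of 37 tested, with 4 that rose and a median of -0.40. PLOD2, a collagen lysyl hydroxylase, had 6.16 and 6.07 RPKM with enzalutamide against 19.6 and 19.5 with DMSO (log2 -1.53, adjusted p = 1.1e-06). ERO1A, an oxidase of the endoplasmic reticulum, had 7.11 and 7.12 RPKM with enzalutamide against 19.2 and 20.1 with DMSO (log2 -1.35). HK2, hexokinase 2, had 10.0 and 10.1 RPKM with enzalutamide against 24.9 and 24.2 with DMSO (log2 -1.21), and PFKFB3, which makes the activator of phosphofructokinase, changed by -1.25. The abundant enzymes moved by less, among them LDHA at 608 and 603 RPKM with enzalutamide against 976 and 966 with DMSO (log2 -0.68) and ENO1 (log2 -0.88). Not every hypoxia gene followed: EGLN3, an oxygen-sensing prolyl hydroxylase, rose by 0.55, and CA9, at 0.254 and 0.551 RPKM with enzalutamide and 0.299 and 0.506 with DMSO, did not pass.

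Of 36 genes for cholesterol and fatty acid synthesis, 29 fell and 3 rose, with a median of -0.36. Of 27 genes for fatty acid oxidation and peroxisomes, 18 rose and 3 fell, with a median of 0.34; 1 fall was called without DMSO replicate 1. ELOVL7, which lengthens saturated fatty acids, was among the largest falls of all genes, at 4.56 and 3.95 RPKM with enzalutamide against 30.7 and 30.5 with DMSO (log2 -2.59, SE 0.0618). ELOVL5 had 48.2 and 47.6 RPKM with enzalutamide against 119 and 122 with DMSO (log2 -1.32), and ACSL3, which activates fatty acids for lipid droplets, had 27.9 and 26.0 RPKM with enzalutamide against 79.4 and 80.7 with DMSO (log2 -1.54). FASN, fatty acid synthase, changed by -0.83. TM7SF2, a sterol reductase of the same pathway, went the other way, with 298 and 294 RPKM with enzalutamide and 110.0 and 109.9 with DMSO (log2 1.42). HADHB, of the mitochondrial trifunctional protein, rose by 0.69 and PEX11A, which divides peroxisomes, by 0.83. PEX10 was an exception among peroxisome genes at 32.1 and 35.8 RPKM with enzalutamide against 69.1 and 70.6 with DMSO (log2 -1.02).

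Of 51 subunits of the respiratory chain tested, 6 rose and 9 fell, with a median of 0.011; 29.4% were called in either direction, against 48.3% of all genes, and that difference was not tested. The rises numbered 3 without enzalutamide replicate 2, and the falls 5 without DMSO replicate 2 or enzalutamide replicate 1. After scaling the counts were 3 and 16, so no direction is given for this list. Genes of glutamate and citrate metabolism fell more often than they rose, 15 and 3 of 31. SLC1A5, a glutamine transporter, changed by -0.58 and SLC1A1, a glutamate transporter, by -0.43, while ACO1, cytosolic aconitase, rose by 0.49.

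**Figure D3:**
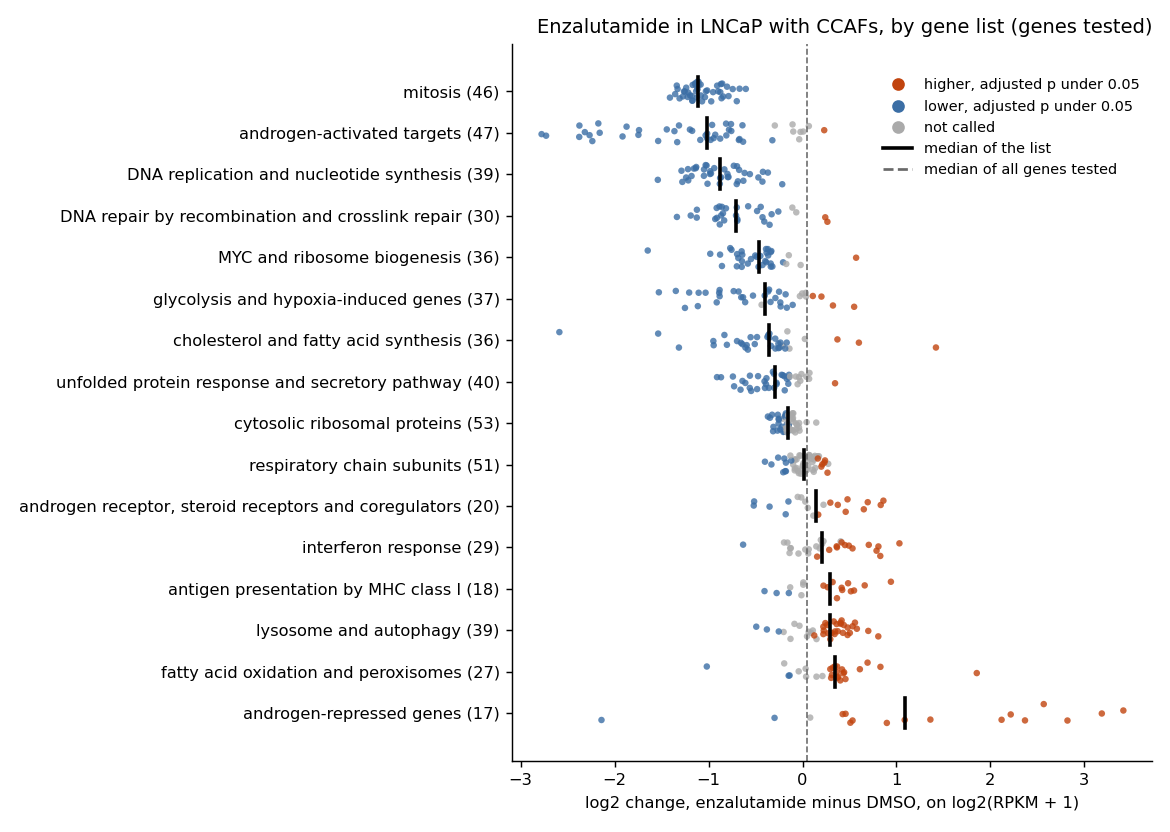
Log2 change of enzalutamide minus DMSO in LNCaP with CCAFs for each tested member of 16 gene lists (number of genes in parentheses); each point is a gene, colored by its call, black bars are list medians and the dashed line is the median of all genes. The mitosis points all lie below 0 around -1.11, the ribosomal and respiratory lists sit near the dashed line, and the androgen-repressed genes spread up to 3.42.

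The machinery of protein folding and export was lower. Of 40 genes for the unfolded protein response and the secretory pathway, 30 fell and 1 rose, with a median of -0.29 and none past log2 of 1; the rise, KDELR3, was not called without DMSO replicate 1, enzalutamide replicate 1 or enzalutamide replicate 2. PDIA5, a disulfide isomerase, had 11.4 and 12.1 RPKM with enzalutamide against 22.3 and 23.6 with DMSO (log2 -0.91). SDF2L1 and MANF, resident proteins of the endoplasmic reticulum, changed by -0.87 and -0.74, and SEC61G, a subunit of the translocation channel, by -0.73. XBP1, which drives many of these genes, was at 58.0 and 58.8 RPKM with enzalutamide and 61.2 and 58.7 with DMSO and did not pass (adjusted p = 0.56). In the ATF4 and amino acid list, 16 of 30 fell and 2 rose; the rises numbered 1 without DMSO replicate 2 or enzalutamide replicate 2. MTHFD2, of mitochondrial folate metabolism, was at 18.4 and 20.3 RPKM with enzalutamide and 42.1 and 42.8 with DMSO (log2 -1.10). The secreted glycoprotein STC2 changed by -1.04 and PSAT1, of serine synthesis, by -0.66. ATF4 itself fell by a small step (log2 -0.13) and DDIT3, its target that encodes CHOP, stood at 14.9 and 14.7 RPKM with enzalutamide and 15.4 and 14.3 with DMSO.

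Enzymes that build sugar chains went both ways, with 13 that fell and 10 that rose of 29 tested. ST6GALNAC1, which caps the Tn antigen with sialic acid, was at 1.403 and 1.402 RPKM with enzalutamide against 10.7 and 10.5 with DMSO (log2 -2.27, adjusted p = 1.9e-08). UAP1, which makes the activated sugar UDP-N-acetylglucosamine, had 70.1 and 74.0 RPKM with enzalutamide and 156 and 153 with DMSO (log2 -1.09), and GNPNAT1, an earlier step of the same route, changed by -0.81. GCNT1, which branches O-linked chains, changed by -1.11.

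Growth factor receptors did not move as a block. Of 18 receptor tyrosine kinases and ligands tested, out of 36 listed, 10 rose and 4 fell. IGF1R, the receptor of insulin-like growth factors, had 1.03 and 1.02 RPKM with enzalutamide against 5.01 and 5.26 with DMSO (log2 -1.60, SE 0.0846, adjusted p = 5.9e-07). EGFR had 9.43 and 9.32 RPKM with enzalutamide against 19.1 and 19.9 with DMSO (log2 -0.98). ERBB2, the HER2 receptor, went the other way, with 69.7 and 69.4 RPKM with enzalutamide and 39.6 and 39.6 with DMSO (log2 0.80). ERBB3, its partner, rose by 0.20, and FGF13 by 0.84. Below IGF1R, the adaptor IRS1 stood at 0.651 and 0.558 RPKM with enzalutamide against 2.33 and 2.74 with DMSO (log2 -1.14). GRB10, an adaptor that dampens signalling of these receptors, rose to 99.6 and 97.4 RPKM with enzalutamide, against 17.5 and 16.7 with DMSO (5.76-fold higher, log2 2.46). IGFBP3, a secreted protein that binds the growth factors, had 38.8 and 37.4 RPKM with enzalutamide against 5.99 and 5.20 with DMSO (log2 2.57). Of 12 tested genes of the IGF list, 3 rose and 6 fell.

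Feedback inhibitors and early response genes of the ERK pathway gave 8 rises and 4 falls of 22 tested. The share called, 54.5%, is near the 48.3% of all genes, and fewer rises were called without enzalutamide replicate 1. SPRY4, an inhibitor of receptor signalling, was at 2.41 and 2.40 RPKM with enzalutamide against 0.243 and 0.360 with DMSO (log2 1.39). Its relative SPRY1 fell (log2 -0.77). FOS, a subunit of AP-1, had 2.04 and 2.06 RPKM with enzalutamide and 0.647 and 0.754 with DMSO (log2 0.84).

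In the TGF-beta and BMP list, 9 of 21 rose and 4 fell. The ID genes, which encode inhibitors of basic helix-loop-helix factors and are BMP targets, rose: ID1 stood at 78.6 and 73.4 RPKM with enzalutamide and 26.5 and 27.7 with DMSO (log2 1.45), with ID2 at 1.26 and ID3 at 0.81. BMPR1B, a BMP receptor, fell to 1.79 and 1.44 RPKM with enzalutamide, against 9.93 and 10.3 with DMSO (log2 -2.09). PMEPA1, an inhibitor of TGF-beta signalling that androgen also induces, was at 10.6 and 10.1 RPKM with enzalutamide and 41.5 and 42.2 with DMSO (log2 -1.92). GDF15, a secreted stress factor of this family, had 259.6 and 258 RPKM with enzalutamide against 709 and 691 with DMSO (log2 -1.43, SE 0.0703), and it was among the more abundant transcripts that fell.

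The WNT list had 9 rises and 3 falls of 21 tested, with 57.1% called against 48.3% of all genes. MMP7, a matrix protease and WNT target, fell to 1.01 and 0.810 RPKM with enzalutamide, against 3.77 and 4.10 with DMSO (log2 -1.37). C8orf4, also called TCIM, rose to 2.63 and 2.94 RPKM with enzalutamide, against 0.477 and 0.712 with DMSO (log2 1.25). ROR2, a receptor of WNT5A, was at 1.04 and 1.28 RPKM with enzalutamide and 0.0740 and 0.0626 with DMSO (log2 1.01). Both ROR2 and WNT5A (log2 0.55) rose, and the receptor FZD5 fell (log2 -0.82). NOTCH genes gave 6 falls and 3 rises of 16, with 56.2% called. The ligand JAG1 was at 9.49 and 10.0 RPKM with enzalutamide against 19.8 and 19.5 with DMSO (log2 -0.94), and the regulator HES6 changed by -1.06. In the retinoid list, 4 rose and 3 fell of 13, with 53.8% called. RARRES3, a retinoid-induced phospholipase, had 6.01 and 6.65 RPKM with enzalutamide against 1.42 and 1.37 with DMSO (log2 1.61). ALDH1A3, which makes retinoic acid and is also androgen-induced, fell (log2 -0.68).

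Interferon-response genes rose in 13 of 29 tested, and 1 fell, with a median of 0.21. The share called, 48.3%, equals that of all genes, of which 26.8% rose and 21.5% fell. The interferon falls numbered 2 without DMSO replicate 1 or enzalutamide replicate 2. IRF9, a transcription factor of that response, stood at 7.31 and 6.39 RPKM with enzalutamide, against 3.39 and 3.44 with DMSO (log2 0.83). IRF7, another, stood at 9.18 and 9.32 RPKM with enzalutamide, against 4.64 and 5.08 with DMSO (log2 0.81). IFI35 rose to 17.8 and 16.4 RPKM with enzalutamide, against 8.64 and 7.09 with DMSO (log2 1.03). Effector genes that interferon induces strongly, such as IFIT1 (1.56 and 1.496 RPKM with enzalutamide, 1.88 and 1.35 with DMSO) and MX1 (1.27 and 1.52 RPKM with enzalutamide, 0.932 and 1.18 with DMSO), did not pass, and OAS3 fell (log2 -0.63). For presentation by MHC class I, 11 of 18 rose and 3 fell, with a median of 0.29. TAPBP, the tapasin that loads peptides, was at 43.0 and 41.8 RPKM with enzalutamide and 21.5 and 21.7 with DMSO (log2 0.94). The proteasome activator subunit PSME1 rose by 0.66 and the peptide trimmer ERAP1 by 0.55. HLA-B rose by 0.51, though class I genes are alike in sequence, and B2M, their shared light chain, was at 177 and 184 RPKM with enzalutamide and 171 and 188 with DMSO and did not pass.

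Of 32 NF-kB targets, cytokines and chemokines listed, 20 passed the filter, some of them through libraries outside this comparison; 6 rose and 3 fell, with a median of 0.067. The share called was 45%, near the 48.3% of all genes. IL1RN, the antagonist of the interleukin-1 receptor, was the largest of the rises, at 46.3 and 46.6 RPKM with enzalutamide against 9.03 and 8.14 with DMSO (log2 2.31, adjusted p = 4.2e-09). TNFSF15 had 10.9 and 10.7 RPKM with enzalutamide and 5.20 and 5.25 with DMSO (log2 0.92), and NFKB1, a subunit of NF-kB, had 32.9 and 34.0 RPKM with enzalutamide and 21.1 and 19.5 with DMSO (log2 0.69). CXCL8 was at 0.0290 and 0.0943 RPKM with enzalutamide and 0.212 and 0.0923 with DMSO, under 1 RPKM in all 4 libraries.

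Among regulators of apoptosis, 9 rose and 5 fell of 24, with 58.3% called against 48.3% of all genes. PMAIP1, which encodes the death-promoting NOXA, had 3.50 and 3.79 RPKM with enzalutamide against 8.997 and 8.37 with DMSO (log2 -1.06). BMF, a BH3-only death protein, rose to 17.9 and 18.0 RPKM with enzalutamide, against 7.43 and 8.17 with DMSO (log2 1.11), and so did its opponent MCL1, at 95.0 and 92.8 RPKM with enzalutamide against 59.6 and 61.5 with DMSO (log2 0.62). BCL2 was under the filter, at 0.665 and 0.526 RPKM with enzalutamide and 0.718 and 0.491 with DMSO, and was not tested.

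Lysosome and autophagy genes rose in 27 of 39 cases and fell in 3, with a median of 0.30 and none past log2 of 1. SQSTM1, the autophagy receptor p62, had 164 and 169 RPKM with enzalutamide against 101 and 103 with DMSO (log2 0.70, SE 0.0380). NEU1, a lysosomal sialidase, had 24.7 and 25.7 RPKM with enzalutamide and 14.3 and 13.7 with DMSO (log2 0.81). The cathepsins CTSB and CTSH, lysosomal proteases, rose by 0.58 and 0.56, and the autophagy protein GABARAPL2 by 0.50. TFEB, a driver of lysosome genes, was at 3.31 and 3.66 RPKM with enzalutamide and 3.69 and 2.92 with DMSO and did not pass.

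NRF2 targets had no common direction, with 9 rises and 11 falls of 26. HMOX1, heme oxygenase 1, had 5.69 and 6.98 RPKM with enzalutamide against 23.7 and 21.3 with DMSO (log2 -1.68, adjusted p = 4.2e-07), while NQO1 rose (log2 0.54). Iron and copper genes were split too, 9 up and 8 down of 25. CP, the copper-carrying ferroxidase, stood at 10.1 and 9.68 RPKM with enzalutamide and 0.612 and 0.631 RPKM with DMSO (log2 2.75). The ferritin chain FTH1, which stores iron, rose by 0.42, and TFRC, the transferrin receptor that takes it up, fell to 66.1 and 64.0 RPKM with enzalutamide, against 105 and 104 with DMSO (log2 -0.68). STEAP2, a metalloreductase of prostate, rose to 213 and 204 RPKM with enzalutamide, against 111 and 113 with DMSO (log2 0.89). The metallothioneins MT1X (log2 -0.90), MT1G (log2 -0.73) and MT2A (log2 -0.68), metal-binding proteins of near-identical sequence, fell. Of 15 glucocorticoid receptor targets tested, 4 rose and 6 fell, and the rises numbered 2 without enzalutamide replicate 1; ZBTB16 (log2 -0.98) and S100P (log2 -0.90) fell alongside FKBP5.

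Among prostate cell-surface antigens, 8 rose and 4 fell of 18. FOLH1, STEAP2 and STEAP1 (log2 0.39) rose, KLK2 and TMEFF2 fell, and EPCAM was at 53.7 and 59.8 RPKM with enzalutamide and 53.7 and 58.1 with DMSO without passing. Of 28 channels and pumps, 10 rose and 10 fell, and the falls numbered 5 without DMSO replicate 2. ATP1B1, the beta subunit of the sodium pump, was among the most abundant transcripts that rose, at 494 and 485 RPKM with enzalutamide against 153 and 149 with DMSO (3.24-fold higher, log2 1.69). ATP2B1, a calcium pump of the plasma membrane, had 38.5 and 37.4 RPKM with enzalutamide and 15.2 and 15.4 with DMSO (log2 1.26).

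Cell junctions shifted in part. OCLN, the tight junction protein occludin, had 29.4 and 27.7 RPKM with enzalutamide against 7.36 and 7.16 with DMSO (log2 1.84, SE 0.0587). TJP1, the scaffold ZO-1 to which occludin binds, fell to 20.3 and 20.5 RPKM with enzalutamide, against 39.0 and 38.8 with DMSO (log2 -0.90). The cadherins CDH26 (log2 0.94) and CDH3 (log2 0.90) rose, and CDH1 by a small step (log2 0.19). In all, 16 of 31 adhesion genes rose and 9 fell. Matrix genes and their proteases were split, 9 up and 8 down of 24: LOX, which crosslinks collagen, was at 0.170 and 0.222 RPKM with enzalutamide against 1.97 and 2.49 with DMSO (log2 -1.43), and MMP16 rose (log2 0.97). COL5A2 (log2 1.48), COL6A1 (log2 0.77) and COL6A2 (log2 1.03) rose. They are on the fibroblast marker list, of which 6 rose and 1 fell of 10 tested. In LNCaP grown alone 6 of that list also rose and 1 fell, with a median of 0.50 against 0.39 with CCAFs. COL6A1 and COL6A2, with FN1, made up most of the summed value of that list given above, so its rise is not a separate result. Members under the filter were not tested and went both ways: SPARC was at 0.0689 and 0 RPKM with enzalutamide against 0.504 and 0.468 with DMSO, and COL3A1 at 0.306 and 0.410 against 0.217 and 0.258. VWF, the 1 endothelial marker that passed the filter, was at 3.83 and 4.22 RPKM with enzalutamide and 2.26 and 2.23 with DMSO (log2 0.63), with PECAM1, CDH5, KDR and TEK under 0.1 in all 4 libraries. CD68, the 1 macrophage marker that passed it, had 6.26 and 6.64 RPKM with enzalutamide and 4.96 and 5.12 with DMSO (log2 0.30) and lost its call without DMSO replicate 1 or enzalutamide replicate 2. The mesenchymal factor TWIST1 fell to 3.44 and 3.86 RPKM with enzalutamide, against 12.8 and 13.3 with DMSO (log2 -1.59). Of 10 neuroendocrine markers, 2 averaged 1 RPKM or more with enzalutamide and 1 with DMSO, and the list summed to 51.0 to 51.6 RPKM with enzalutamide and 48.8 to 50.7 RPKM with DMSO. Most of that sum was ENO2, a glycolytic enzyme that is also made outside neuroendocrine cells, at 49.8 and 50.4 RPKM with enzalutamide and 49.8 and 48.0 with DMSO. ENO2 and SYP, the 2 that passed the filter, were not called, and INSM1 and NEUROD1 were at 0 in all 4 libraries.

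Long noncoding RNAs gave 7 falls and 4 rises of 14 tested. MALAT1, a nuclear RNA, stood at 345 and 335 RPKM with enzalutamide and 150.3 and 164 with DMSO (log2 1.11). PCAT1, a prostate cancer transcript, had 0.993 and 0.834 RPKM with enzalutamide against 3.81 and 4.24 with DMSO (log2 -1.39). PVT1, the neighbour of MYC, had 6.68 and 5.39 RPKM with enzalutamide and 10.6 and 11.5 with DMSO (log2 -0.78), and the snoRNA host SNHG1 changed by -0.79.

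Several of the largest changes were in genes of no list above. LRRN1, a neuronal leucine-rich membrane protein, was at 44.7 and 42.3 RPKM with enzalutamide and 6.52 and 6.42 with DMSO (log2 2.57, adjusted p = 1.3e-09). MYRIP, which links vesicles to motor proteins, rose by 2.45, IRX3, a homeobox factor, by 2.34 and PLA2G2A, a secreted phospholipase, by 2.20. IFI27L2, a relative of interferon-induced IFI27, stood at 16.0 and 19.3 RPKM with enzalutamide and 2.88 and 2.36 with DMSO (log2 2.36). On the falling side, AKAP12, a scaffold of protein kinase A, had 0.523 and 0.536 RPKM with enzalutamide against 9.26 and 8.93 with DMSO (log2 -2.72, adjusted p = 1.1e-08). STK39, a kinase of ion transport, had 18.3 and 18.3 RPKM with enzalutamide against 101 and 97.1 with DMSO (log2 -2.38). TRGC1 (log2 -2.53) and TARP (log2 -2.40) both fell. TARP is a prostate transcript of the T-cell receptor gamma locus that overlaps TRGC1, and how the authors assigned reads from the overlap is not stated, so the values of each are uncertain. TRIM49D2 (log2 -2.38) belongs to a family of near-identical copies and is uncertain for that reason.

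The response with CCAFs was set against the response alone, 2 effects that share no library, by a test of their difference. The difference passed in 1125 genes (7.01%), of which 732 lay above (4.56%) and 393 below (2.45%) the effect alone. Against the effect with CRPCCAFs it passed in 1034 genes (6.45%), 653 above (4.07%) and 381 below (2.38%). Enzalutamide changed 55.4% of genes in LNCaP alone and 55.2% with CRPCCAFs. Both counts of differences are unstable. Each fell whichever library of the effects compared was left out, except that the count against CRPCCAFs rose without CRPCCAF DMSO replicate 1. The largest drops follow. Against the effect alone the count was 642 without alone DMSO replicate 1, 623 without alone enzalutamide replicate 1, 648 and 628 without DMSO replicate 1 and 2 with CCAFs, and 718 and 647 without enzalutamide replicate 1 and 2 with CCAFs. Against the effect with CRPCCAFs it was 580 and 591 without DMSO replicate 1 and 2 with CCAFs, 587 without enzalutamide replicate 2 with CCAFs and 598 without CRPCCAF enzalutamide replicate 1.

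Mitosis genes fell by less with CCAFs than in either other setting. Their median change was -1.11 with CCAFs, against -2.17 alone and -2.25 with CRPCCAFs, and the difference passed in 44 and 45 of 46 genes, each time with the CCAF effect nearer to 0. For replication genes the medians were -0.88 with CCAFs, -1.79 alone and -1.69 with CRPCCAFs, and the difference passed in 34 and 33 of 39. RRM2 had 25.1 and 23.4 RPKM with enzalutamide and CCAFs, against 5.68 and 6.30 RPKM with enzalutamide alone and 3.61 and 4.18 RPKM with enzalutamide and CRPCCAFs. With DMSO, RRM2 stood at 72.2 and 72.6 RPKM with CCAFs, 66.6 and 69.4 alone and 56.5 and 54.9 with CRPCCAFs. The effect on RRM2 was smaller with CCAFs by 1.76 than alone (SE 0.0905, adjusted p = 1.8e-05) and by 2.00 than with CRPCCAFs (SE 0.0905, adjusted p = 6.9e-06). ASF1B, a histone chaperone, and CDC45 behaved alike, with differences of 1.57 and 1.54 from the effect alone and 1.78 and 1.63 from that with CRPCCAFs. MYBL2, a transcription factor of the cell cycle, differed from CRPCCAFs by 1.80 and NUSAP1, of the spindle, by 1.58. Ribosomal protein genes differed from the effect with CRPCCAFs in 30 of 53 but from the effect alone in 0 of 53. Their medians were -0.16 with CCAFs, -0.30 alone and -0.50 with CRPCCAFs.

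**Figure D4:**
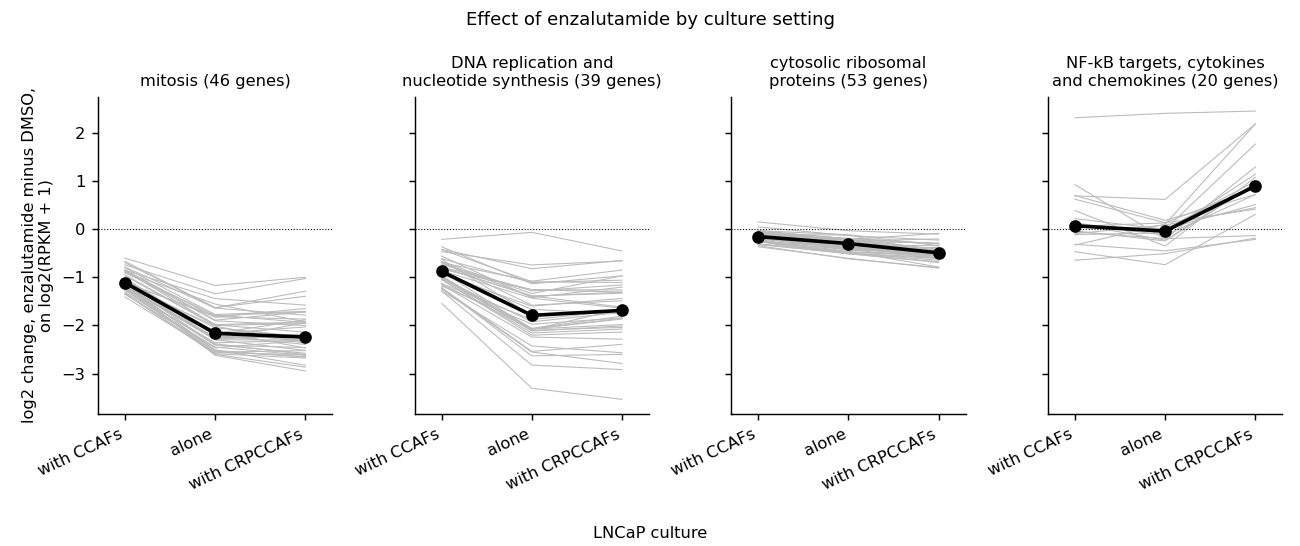
Log2 change of enzalutamide minus DMSO for each tested gene of 4 lists in LNCaP with CCAFs, alone and with CRPCCAFs; grey lines join 1 gene across the settings and black points are list medians. The mitosis median is -1.11 with CCAFs, -2.17 alone and -2.25 with CRPCCAFs, and the NF-kB list stands apart with CRPCCAFs at 0.89. Some genes of the NF-kB list passed the filter only through libraries outside the comparison with CCAFs, which in part sets their small change there.

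For androgen-activated targets the medians were -1.02 with CCAFs, -0.89 alone and -1.24 with CRPCCAFs, and the effect with CCAFs lay above the effect alone in 5 genes and below it in 17 of 47. It lay above the effect with CRPCCAFs in 14 and below it in 6. KLK3, of the kallikrein list, kept 444 and 454 RPKM with enzalutamide and CCAFs, against 55.6 and 61.5 RPKM with enzalutamide alone and 178 and 179.7 RPKM with enzalutamide and CRPCCAFs, and its effect differed by 2.28 from that alone (SE 0.0759, adjusted p = 2e-06). On the other side IGFBP3 rose less with CCAFs than alone, with 38.8 and 37.4 RPKM under the drug against 155 and 159 alone, a difference of -1.66 (SE 0.0876, adjusted p = 1.8e-05). With CRPCCAFs IGFBP3 rose by 2.33, and the difference of 0.24 between the 2 coculture effects did not pass (adjusted p = 0.16). CP rose with CCAFs to 10.1 and 9.68 RPKM, against 0.902 and 1.08 RPKM alone, and the effects differed by 2.40 (adjusted p = 9.6e-06). With CRPCCAFs CP rose further, to 71.5 and 71.5 RPKM with enzalutamide against 3.83 and 4.38 with DMSO (log2 3.83), and the effect with CCAFs lay below it by a difference of -1.08 (adjusted p = 0.00025).

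For other genes the effect with CCAFs lay on the lower side. HMOX1 fell with CCAFs (log2 -1.68), while its change was 0.095 alone (adjusted p = 0.37) and 0.62 with CRPCCAFs (adjusted p = 0.00018). With DMSO it stood at 23.7 and 21.3 RPKM with CCAFs, 5.51 and 6.24 alone and 79.2 and 82.3 with CRPCCAFs, and under the drug at 5.69 and 6.98 RPKM with CCAFs and 6.41 and 6.25 alone. The differences of its effect were -1.78 (adjusted p = 3.9e-05) and -2.31 (adjusted p = 1e-05). AKAP12 also had a higher DMSO level with CCAFs, 9.26 and 8.93 RPKM, than alone, 1.28 and 1.000 RPKM, and its effect differed by -1.74 from that alone. On the recovered reads with limma voom that difference was -0.25 (adjusted p = 0.77) and did not pass; the difference from CRPCCAFs was -2.04 (adjusted p = 1e-05). MAP1B, a microtubule protein, and SMAD9, a BMP signal carrier, rose alone by 1.53 and 1.17, against 0.30 and -0.084 with CCAFs, where SMAD9 did not pass. IGFBP5 and LCN2, which encodes lipocalin 2, rose with CRPCCAFs by 2.69 and 2.18; with CCAFs their changes of -0.13 and -0.34 did not pass, and the differences were -2.82 and -2.52. The list of NF-kB targets and cytokines had a median of 0.067 with CCAFs and 0.89 with CRPCCAFs, and the CCAF effect lay below that with CRPCCAFs in 11 of 20. Some of these 20 genes, such as CXCL8, passed the filter only through libraries outside the comparison with CCAFs. For such genes a small change with CCAFs was set in part by that rule, so neither the medians nor the count measure a difference between settings alone.

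**Figure D5:**
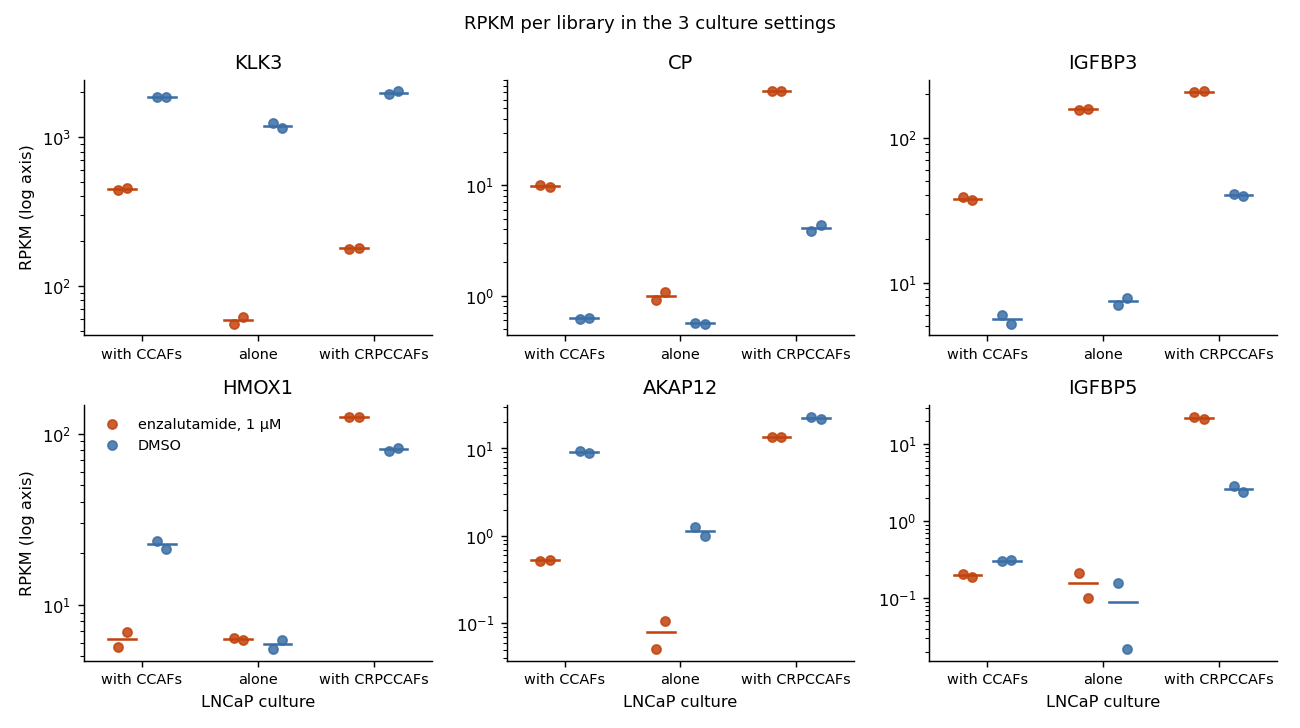
RPKM on log axes in all 12 LNCaP libraries for 6 genes whose enzalutamide effect with CCAFs differed from that in another setting; points are libraries, short lines group means, and enzalutamide stands left of DMSO in each setting. KLK3 under the drug is highest with CCAFs (444 and 454 RPKM), HMOX1 under the drug is alike with CCAFs (5.69 and 6.98) and alone (6.41 and 6.25), and IGFBP5 reaches 22.9 and 21.5 RPKM with enzalutamide and CRPCCAFs.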

How the data were processed

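The authors deposited 1 table of RPKM values per gene for the 12 LNCaP libraries, made from RNA extracted with Trizol per the labels' protocols. The submitters' processing notes name HISAT2, HTSeq, DESeq2 and the builds hg19 and mm10; their versions and roles are not given in the sources used here. Of 44591 gene names, 27 that a spreadsheet had turned into dates were dropped, and genes with at least 1 RPKM in at least 2 of 12 libraries were kept. The deposited RPKM were used as log2(RPKM + 1) in limma 3.58.1 (R 4.3.3) with a mean-variance trend over 6 groups of 2 libraries, which leaves 6 residual degrees of freedom, and p-values were adjusted over all 16042 genes by Benjamini-Hochberg. Each difference of effects was a contrast of the same fit. The procedure was tested on simulated data. Tables and figures used Python 3.11.15, pandas 2.3.3, numpy 2.4.6 and matplotlib 3.10.9.

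The smallest step of each gene gave the reads behind its values for 25005 genes, and those reads entered limma voom as an alternative. A gene was solved only where its values came within 0.02 reads of whole numbers. That 100% of the solved values were whole within 0.05 reads therefore follows from the rule and is no check of it. Other alternatives were a pseudocount of 0.1, no filter, median-of-ratios scaling, a fit of the groups compared alone, a replicate block and leaving out each library. Genes named are the 15 largest rises and falls that passed with groups apart, up to 4 per list over 48 lists, a preset few and the 8 largest differences each way. Further list members are named to show a role, a minor direction or a failure to pass, and these were chosen after their values were seen. The libraries and lists were chosen with earlier results of these data known. Promoter windows come from RefSeq on GRCh38.p14 and were matched by symbol. A few of the genes so chosen are left out here.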

Additional observations from a re-analysis of the deposited data

Results flagged for a closer look

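The enzalutamide effect with CCAFs differed from the effect alone in 1125 genes and from the effect with CRPCCAFs in 1034 genes, by limma's test of the difference itself, and the largest are given here as log2 differences of effects. Above the effect alone lay CP (2.40), KLK3 (2.28), TMEM238 (1.81), RRM2 (1.76), FAM64A (1.57), ASF1B (1.57), CDC45 (1.54) and FAM111B (1.52). Below it lay HMOX1 (-1.78), AKAP12 (-1.74), IGFBP3 (-1.66), ANGPT2 (-1.37), SMAD9 (-1.25), CAPN5 (-1.22), MAP1B (-1.22) and HIST1H4H (-1.21). The difference of TMEM238 was lost under some alternatives, and with limma voom those of AKAP12 (-0.25, adjusted p = 0.77) and ANGPT2 (-0.95, adjusted p = 0.18) did not pass.

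Above the effect with CRPCCAFs lay RRM2 (2.00), MYBL2 (1.80), ASF1B (1.78), FAM64A (1.66), FAM111B (1.65), TMEM238 (1.65), CDC45 (1.63) and NUSAP1 (1.58). Below it lay IGFBP5 (-2.82), LCN2 (-2.52), HMOX1 (-2.31), AKAP12 (-2.04), KRT20 (-1.84), NMB (-1.77), TRAF5 (-1.61) and CCL20 (-1.55). CCL20, a chemokine, did not pass with a pseudocount of 0.1 (-1.90, adjusted p = 0.33) or with limma voom (-1.85, adjusted p = 0.22). The median difference over the mitosis list was 1.08 against the effect alone and 1.09 against that with CRPCCAFs, and over the replication list 0.86 and 0.78.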

How the results depend on the processing

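Of 192 genes called with CCAFs that the stated rules picked, 184 kept call and direction under every alternative run, and 0 changed direction. In at least 1 alternative, 8 lost the call: CAPN5, CD68, CDKN1B, HIST1H4E, HSD17B6, STS, TAGLN and TMEM238. Further list members named above are outside this count, and some of them, such as TSC22D3 and KDELR3, also lost their call. The count of called genes was 6130 to 6315 when 1 library of the comparison was left out. The count at log2 of 1 or more was 1170 with a pseudocount of 0.1 (634 higher, 536 lower) and 1254 with limma voom (699 higher, 555 lower). Against the effect alone, limma voom gave 1766 differences (1111 above, 655 below), and leaving out 1 library gave 623 to 813 (422 to 576 above, 193 to 265 below). Against the effect with CRPCCAFs, limma voom gave 1591 (633 below), and leaving out 1 library gave 580 to 1367 (377 to 838 above, 192 to 529 below). The cause of these shifts was not tested. HIST1H4H and NMB, which were not called with CCAFs, changed sign without DMSO replicate 2. Over the left-out libraries HIST1H4H ran from -0.12 to 0.0027 and NMB from -0.046 to 0.32. Samples of equal replicate number share only that number: deviations of same-numbered libraries correlated at -0.00978 between enzalutamide and DMSO with CCAFs, and from -0.0617 to 0.084 over 15 pairs of groups. With the replicate block 7696 genes were called, the differences numbered 1025 against the effect alone and 992 against that with CRPCCAFs. No call among the genes picked by the stated rules changed with it. Genes that reached 1 RPKM in fewer than 2 of the 12 libraries were not tested.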
